A study of Mus musculus with 12 samples.

Results

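The miR-29 family consists of mmu-miR-29a, mmu-miR-29b and mmu-miR-29c, written here without the species prefix. Its guide strands were followed across 4 treatments of 3T3-L1, an established mouse cell line of preadipocytes that form fat cells when induced. The 3 members were picked by the miRNA name printed on the array, leaving out the opposite (star) strands, and they are 3 of the 611 mouse miRNAs on that array and 3 of the 157 that entered the tests. Each of the 4 groups held 3 arrays. Preadipocytes were 3T3-L1 cells for which the labels name no treatment. The group labelled mature adipocytes (MDI induction), called MDI here, was kept for 3 days after confluence in medium with 3-isobutyl-1-methylxanthine, dexamethasone and insulin, for 2 days with insulin alone and for 2 days in plain medium, ending on day 7. Lithium treated preadipocytes received LiCl at 25 mM, the study's model of active WNT signalling. The fourth group, lithium plus MDI, was lithium treated preadipocytes put through MDI induction. No schedule for the preadipocytes, the lithium medium or the induction of the lithium plus MDI group is given in the sources used here. Treatment and time in culture therefore cannot be told apart. The groups share the cell line, the serum-containing medium and a labelling of 0.5 ug of total RNA with Cy3.

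Guide strands of miRNAs repress messenger RNAs that pair with the seed, bases 2 to 8 counted from the 5′ end. The miR-29 family is known for repressing genes of the extracellular matrix, among them collagens, elastin and fibrillin, and for targeting the DNA methyltransferases DNMT3A and DNMT3B. In fat cells it is known from overexpression work, in which it lowered insulin-stimulated glucose uptake. Lithium inhibits GSK3, the kinase that marks beta-catenin for destruction, and active WNT signalling holds back fat cell formation.

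The mature sequences from RefSeq (GRCm38.p6) are shown because the members share a seed and differ in the bases behind it. Capitals mark the seed.
miR-29a: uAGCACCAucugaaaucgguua
miR-29b: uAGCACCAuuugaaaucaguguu
miR-29c: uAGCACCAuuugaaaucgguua
The 7 bases of this seed occur at those positions in 3 of the 1679 mature mouse miRNAs of the table, which are these 3. With positions counted from the 5′ end, miR-29c differs from miR-29a by C10U alone. miR-29b differs from miR-29a by C10U, G18A, U21G and A22U and is 23 bases long against 22. The letters AGUGUU close the 3′ end of miR-29b and of 0.119% of the mature sequences, and this ending is known as a signal for nuclear import. The letters UUU stand at positions 9 to 11 of both miR-29b and miR-29c and of 1.43% of the mature sequences. Uridines there have been tied to fast decay of miR-29b in dividing cells.

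The family comes from 2 pairs of genes. Mir29a (mature strand at chr6:31062673-31062694, minus strand) and Mir29b-1 (chr6:31063025-31063047, minus strand) have hairpins 275 bases apart, overlap no other RefSeq gene and have Klf14 as their nearest protein-coding gene. Mir29b-2 (chr1:195037091-195037113, plus strand) and Mir29c (chr1:195037600-195037621, plus strand) have hairpins 426 bases apart and lie within the coordinates of the non-coding gene A330023F24Rik, with Cd46 as the nearest protein-coding gene. Both miR-29b genes give the same mature strand, so the array cannot tell the pairs apart through miR-29b. Signal of miR-29a on the probes for miR-29c, which differ in target by 1 base, was not tested.

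Levels were read from the brighter of a member's 2 probes as background-subtracted intensity, divided by each array's 75th percentile, and expressed as log2. The percentile was taken over the 181 mouse probes that every array detected. A value of 0 therefore equals that percentile, and levels are compared within a miRNA and not between miRNAs. Before scaling, the 75th percentiles ran from 264 to 780 intensity units and were highest on the preadipocyte arrays. Arrays detected 126 to 175 mouse miRNAs. Over all tested miRNAs, 6 of the 12 arrays had a higher mean correlation with some other group than within their group. The arrays left out together in an alternative, a set taken over from earlier results, were lithium plus MDI array 3 (mean r 0.924 with its own group, 0.965 with preadipocytes), preadipocyte array 3 (0.939, and 0.957 with lithium) and lithium array 1 (0.942, and 0.960 with MDI). They are called here the 3 arrays that stood apart. Lithium plus MDI array 2, which was kept, had a wider gap than the last 2 of them (0.944, and 0.966 with MDI), and without it no member passed in any comparison. Of 23 marker miRNAs of other cell types, 2 were detected on any array and none on every array, while 6 of 6 mesenchymal markers were detected. The array measures no messenger RNA, so neither fat cell genes nor the targets of miR-29 were measured. All 3 preadipocyte arrays and MDI array 1 lay on slide 1, and the other arrays lay on slide 2. MDI was the only group on both slides, so a fixed slide block rests on MDI array 1 in every comparison with preadipocytes.

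All 3 guide strands were detected on all 12 arrays, with 100% of their spots well above background. On the scaled log2 scale, the level of miR-29a was 2.22, 2.20 and 1.50 on preadipocyte arrays 1, 2 and 3, and 2.13, 2.05 and 2.10 on MDI arrays 1, 2 and 3. It was 2.29, 1.11 and 1.68 in lithium cells, and 2.54, 2.31 and 2.27 in lithium plus MDI cells. Preadipocyte array 3 lay low in its group, the lithium arrays spread most, and every lithium plus MDI array lay above every preadipocyte and MDI array. Lithium array 1 reached above the lowest lithium plus MDI array. In order of mean level, lithium plus MDI (2.37 ± 0.15, SD, n = 3) stood first, MDI (2.09 ± 0.04) second, preadipocytes (1.98 ± 0.41) next and lithium (1.70 ± 0.59) last, and of the neighbours in that order only the first pair did not overlap.

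For miR-29b, the member with the different 3′ end, the log2 level was 0.14, 0.52 and -0.72 on preadipocyte arrays 1, 2 and 3, and 0.93, 0.48 and 0.86 on the MDI arrays. It was 1.16, -0.51 and 0.00 in lithium cells and 0.98, 0.74 and 1.26 in lithium plus MDI cells. Preadipocyte array 3 was again lowest in its group, and lithium array 1 was far above the other lithium arrays. All lithium plus MDI arrays exceeded all preadipocyte arrays, whereas MDI array 2 fell below preadipocyte array 2. The means were 0.99 ± 0.26 in lithium plus MDI, 0.75 ± 0.24 in MDI, 0.22 ± 0.86 in lithium and -0.02 ± 0.64 in preadipocytes (SD, n = 3), and neighbours in that order overlapped.

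miR-29c, encoded beside the second miR-29b gene, had log2 levels of -2.58, -2.71 and -3.12 on preadipocyte arrays 1, 2 and 3, and -2.57, -2.46 and -2.57 on the MDI arrays. It was at -2.32, -2.95 and -2.58 in lithium cells and -2.12, -2.28 and -2.27 in lithium plus MDI cells. The lithium plus MDI arrays were above all others, and the highest preadipocyte array came within 0.01 of the lowest MDI array. Group means were -2.22 ± 0.09 in lithium plus MDI, -2.53 ± 0.06 in MDI, -2.62 ± 0.31 in lithium and -2.80 ± 0.28 in preadipocytes (SD, n = 3). MDI and lithium overlapped, as did lithium and preadipocytes.

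**Figure D1:**
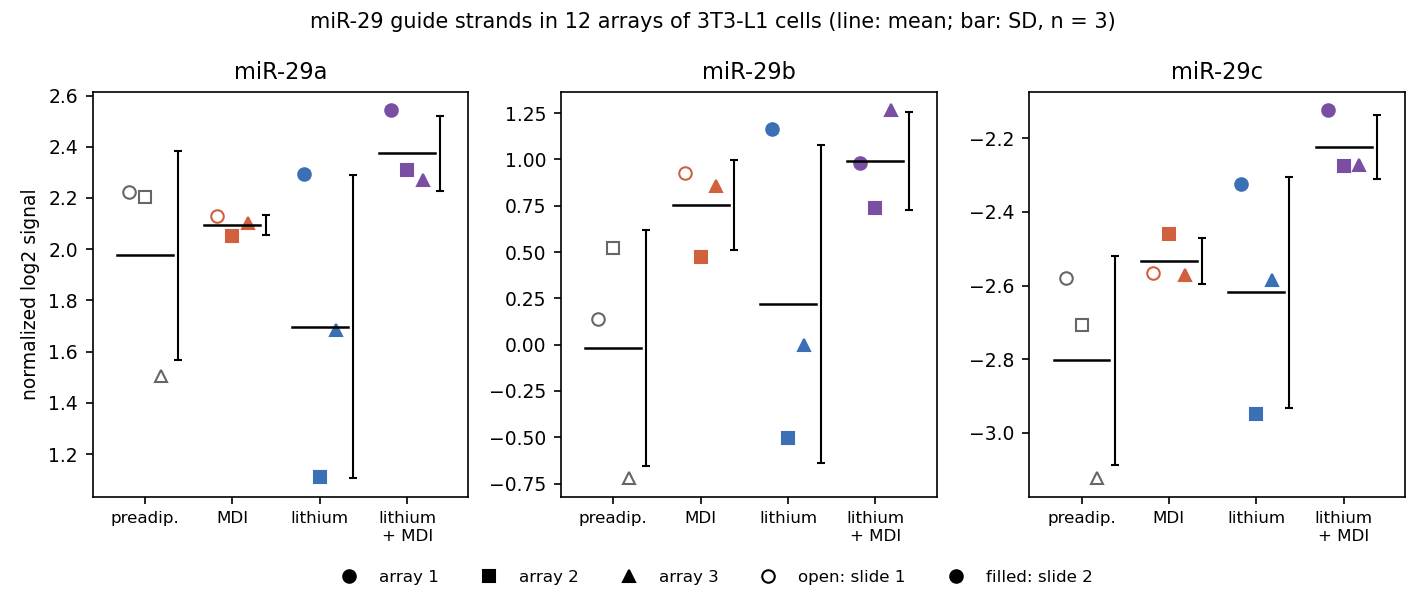
Scaled log2 level (y axis; 0 is the array's 75th percentile) of miR-29a, miR-29b and miR-29c on each of the 12 arrays by group (x axis); points are arrays (open on slide 1, filled on slide 2), lines are group means and bars are 1 SD to each side. Lithium plus MDI arrays lie above all preadipocyte arrays for each member, and lithium arrays spread from 1.11 to 2.29 for miR-29a.

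Before scaling, miR-29a and miR-29c were brighter on every preadipocyte array than on any MDI array, and lithium plus MDI array 3 reached or passed the preadipocyte range. The unscaled intensity of miR-29a was 2345, 2649 and 2212 on preadipocyte arrays, 1159, 1585 and 1471 on MDI arrays, 886 to 1553 on lithium arrays and 1544 to 2298 on lithium plus MDI arrays. For miR-29c it was 84.1, 88.2 and 89.4 on preadipocyte arrays against 44.7, 69.5 and 57.6 on MDI arrays. miR-29b did not show this: its unscaled intensity was 554, 827 and 473 on preadipocyte arrays and 503, 531 and 621 on MDI arrays. Over the lithium plus MDI arrays it ran from 523 to 1145, a range that held 2 of the 3 preadipocyte values. The direction of several comparisons below depends on how arrays are scaled.

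The first comparison asks how the family stands after fat cell induction. Of the members, miR-29b had the largest difference, and none passed the test. Between MDI and preadipocytes, miR-29b was 1.71-fold higher (log2 difference 0.77, 95% confidence interval -0.12 to 1.66, adjusted p = 0.320). limma gave 0.12 for miR-29a (-0.55 to 0.79, adjusted p = 0.840) and 0.27 for miR-29c (-0.26 to 0.81, adjusted p = 0.489). The median of all 157 tested miRNAs was 0.10, and 3.18% of them passed. miR-29c was the member whose MDI and preadipocyte arrays did not overlap, by the margin given above, and 15.9% of tested miRNAs lay higher in MDI without overlap. Without preadipocyte array 3 the difference of miR-29b was 0.42. With slide as a block, which rests on MDI array 1, the difference of miR-29b was 0.95 (adjusted p = 0.490). With no scaling between arrays miR-29a was lower in MDI cells, at -0.78 (adjusted p = 0.0340), in a fit in which 62 of the 157 miRNAs passed around a median of -0.70. All 3 members turned negative with a percentile over all mouse probes, as did the median of all tested miRNAs.

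The second comparison asks what lithium alone did. No member passed, and the signs were mixed. Between lithium and preadipocytes limma gave log2 differences of -0.28 for miR-29a (95% confidence interval -0.95 to 0.39, adjusted p = 0.598), 0.24 for miR-29b (-0.65 to 1.13, adjusted p = 0.724) and 0.18 for miR-29c (-0.35 to 0.72, adjusted p = 0.658). The groups overlapped for every member, while 6.37% of the tested miRNAs passed and 29.9% did not overlap. Without the 3 arrays that stood apart, miR-29a was lower in lithium cells, at -0.81 (adjusted p = 0.0139) and miR-29b was at -0.58 (adjusted p = 0.0866), in a fit in which 83 of the 157 miRNAs passed. miR-29a also passed as lower with no scaling (-0.97, adjusted p = 0.0113) and with a percentile over all mouse probes (-1.18, adjusted p = 0.0160), as did 74 and 78 of the 157 in either direction. Under the same scalings miR-29b turned to -0.45 and -0.66 and miR-29c to -0.51 and -0.71, while miR-29a was at 0.012 with quantile normalization and 0.054 with normexp background correction. These groups share no slide, so their own arrays cannot tell slide and lithium apart.

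Against preadipocytes, lithium plus MDI cells showed the family's largest difference, again in miR-29b. That difference was 1.01 on the log2 scale, a 2.02-fold higher level (limma 95% confidence interval 0.12 to 1.90 in log2, adjusted p = 0.244). miR-29c differed by 0.58 (0.04 to 1.11, adjusted p = 0.244) and miR-29a by 0.40 (-0.27 to 1.07, adjusted p = 0.497). None passed after adjustment over the 157 miRNAs, of which 1.27% passed. Before adjustment miR-29b and miR-29c had a p under 0.05, as had 17.2% of the tested miRNAs. For each member the lithium plus MDI arrays lay above the preadipocyte arrays, as they did for 14% of the tested miRNAs, whose median difference was 0.30. By size of the difference miR-29b ranked 15 among the 157. The groups lie on different slides, and with a percentile over all mouse probes the 3 differences were -0.65, -0.037 and -0.47 for miR-29a, miR-29b and miR-29c.

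MDI induction within lithium treated cells can be compared on 1 slide. The 3 guide strands had higher mean levels in lithium plus MDI than in lithium alone, and none passed. limma gave 0.68 for miR-29a (95% confidence interval 0.01 to 1.35, adjusted p = 0.160), 0.77 for miR-29b (-0.12 to 1.66, adjusted p = 0.217) and 0.39 for miR-29c (-0.14 to 0.93, adjusted p = 0.282). The median of all tested miRNAs was also 0.39. Of the 157, 0% passed in this limma fit and 30.6% (48 miRNAs), miR-29a among them, had an unadjusted p under 0.05. miR-29c was the member whose lithium plus MDI arrays all lay higher, which held for 26.1% of the tested miRNAs. The call rested on lithium array 1: without it miR-29a (0.98, adjusted p = 0.0422) and miR-29b (1.25, adjusted p = 0.0406) passed, among 32 of the 157 miRNAs. Without all 3 arrays that stood apart, the differences were 1.03, 1.11 and 0.57 for miR-29a, miR-29b and miR-29c (adjusted p = 0.00447, 0.00593 and 0.0415). Those arrays were left out for their profiles over the same miRNAs, which narrows the spread, and 88 of the 157 miRNAs passed in that fit.

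**Figure D2:**
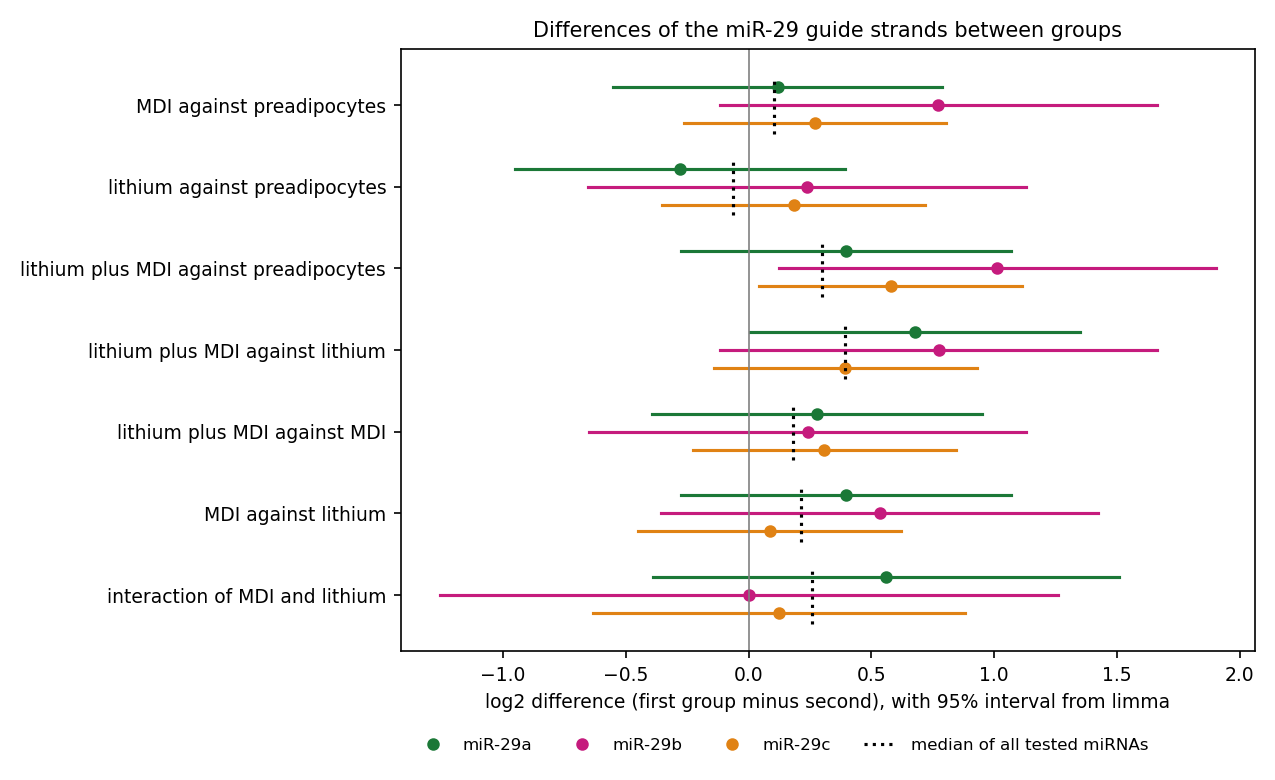
Log2 difference (x axis) with its 95% confidence interval from limma for miR-29a, miR-29b and miR-29c in the 6 pairwise comparisons and the interaction; dotted black marks give the median of all 157 tested miRNAs. The interval of miR-29b in lithium plus MDI against preadipocytes runs from 0.12 to 1.90, and no member passed after adjustment.

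Within MDI-induced cells, each member's mean level was somewhat higher with lithium than without, and none passed. Between lithium plus MDI and MDI limma gave 0.28 for miR-29a (95% confidence interval -0.39 to 0.95, adjusted p = 0.878), 0.24 for miR-29b (-0.65 to 1.13, adjusted p = 0.969) and 0.31 for miR-29c (-0.23 to 0.84, adjusted p = 0.783). The median of all tested miRNAs was 0.18, and 114 of the 157 had a positive difference. For miR-29a and miR-29c the lithium plus MDI arrays all lay higher, as for 11.5% of tested miRNAs. None of the 157 (0%) passed in this limma fit, and 3.82% (6 miRNAs) had an unadjusted p under 0.05. In the authors' deposited table the difference of miR-29a was -0.10.

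Fat cell induction and lithium can also be set against each other directly. Mean levels of the members were higher in MDI than in lithium cells, and no member passed. limma gave 0.40 for miR-29a (95% confidence interval -0.27 to 1.07, adjusted p = 0.411), 0.53 for miR-29b (-0.36 to 1.42, adjusted p = 0.411) and 0.09 for miR-29c (-0.45 to 0.62, adjusted p = 0.824). The groups overlapped for each member, whereas 30.6% of the tested miRNAs did not overlap. None (0%) passed, with 21% (33 miRNAs) at an unadjusted p under 0.05. Without the 3 arrays that stood apart, miR-29a (0.70, adjusted p = 0.0223) and miR-29b (1.01, adjusted p = 0.00777) were higher in MDI cells, in a fit in which 66 of the 157 passed. With no scaling miR-29c turned to -0.12. The interaction, which asks whether MDI shifted a miRNA differently with lithium present, was 0.56 for miR-29a (-0.39 to 1.51, adjusted p = 0.493), 0.0017 for miR-29b (-1.26 to 1.26, adjusted p = 0.998) and 0.12 for miR-29c (-0.63 to 0.88, adjusted p = 0.857). The median interaction of all tested miRNAs was 0.26, above the values of miR-29b and miR-29c, and 103 of the 157 were positive. In the interaction 0% of the 157 passed in limma and 22.3% (35 miRNAs) had an unadjusted p under 0.05. The interaction of miR-29a passed without the 3 arrays (1.15, adjusted p = 0.0134) and with no scaling (1.43, adjusted p = 0.0114). In those fits 69 and 61 of the 157 passed, around medians of 0.54 and 1.04.

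**Figure D3:**
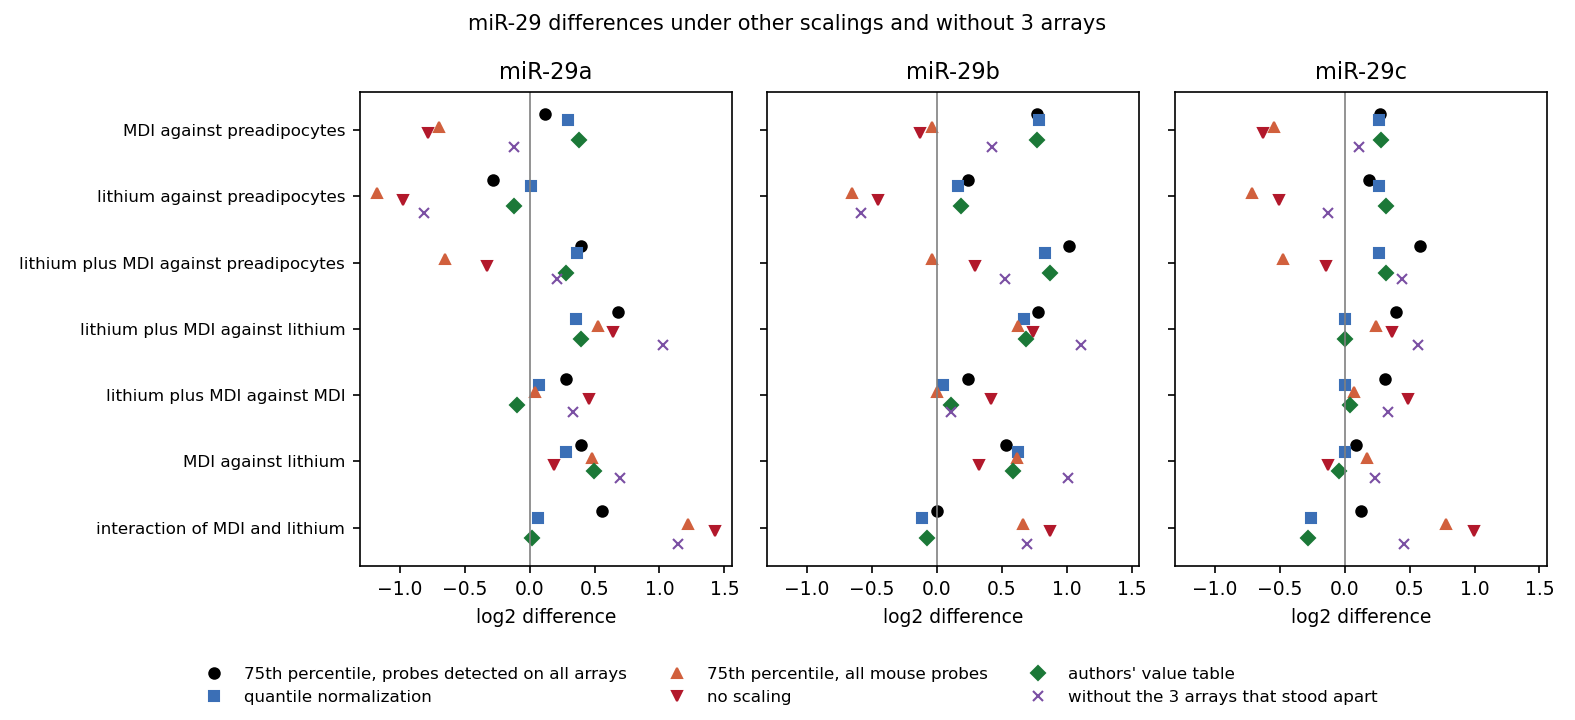
Log2 difference (x axis) of miR-29a, miR-29b and miR-29c in each comparison (y axis), with a marker for each of 4 scalings, the authors' deposited table and the values without the 3 arrays that stood apart. Against preadipocytes, triangles (no scaling and the percentile over all mouse probes) lie left of the other scalings, at -0.78 and -0.69 for miR-29a in MDI, while in lithium plus MDI against lithium no marker lies below 0.

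The shift between scalings was shared with the other miRNAs. With a percentile over all mouse probes, the median difference from preadipocytes over all tested miRNAs was -0.64 for MDI, -0.90 for lithium alone and -0.65 for lithium plus MDI. With no scaling those medians were -0.70, -0.69 and -0.33. In the scaling used here, the difference of miR-29b from preadipocytes was 0.67 above the median of all tested miRNAs in MDI. In lithium plus MDI cells it was 0.71 above that median, while miR-29a was 0.01 and 0.10 above it. These are descriptions and carry no test.

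The balance between members can be read within an array, where a common scaling factor cancels. This measure was added after the levels had been seen. How often ratios of other miRNA pairs separate groups without overlap was not tested, here or for the second ratio below. The log2 ratio of miR-29b to miR-29a was -2.08, -1.68 and -2.23 on preadipocyte arrays 1, 2 and 3, and -1.21, -1.58 and -1.24 on the MDI arrays. It was -1.13, -1.62 and -1.68 in lithium cells and -1.56, -1.57 and -1.0 in lithium plus MDI cells. Preadipocytes held the lowest ratios, and MDI and lithium plus MDI arrays lay above all of them. MDI array 1, on the slide of the preadipocytes, did so too. Lithium array 3 just reached the range of the preadipocytes.

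Relative to miR-29a, miR-29b was thus 1.57-fold higher in MDI than in preadipocytes (log2 difference 0.65) and 1.53-fold higher in lithium plus MDI (0.61). For lithium it was 1.43-fold (0.52). Two-sided exact permutation tests gave p = 0.1, 0.1 and 0.2 in that order, where 0.1 is the smallest p that 3 against 3 arrays allow. After Benjamini-Hochberg adjustment over the 12 ratio comparisons made, the adjusted p was 0.4 for each. Over the 4 pairings of probes the MDI difference ran from 0.46 to 0.86 and was without overlap in 3. Under normexp background correction it was 0.31, with quantile normalization 0.49 and 0.39 in the authors' deposited table, each with overlap. Over 12 alternatives the lithium plus MDI difference ran from 0.26 to 0.77 and the lithium difference from 0.15 to 0.68. Of the 4 pairings of probes, 3 were without overlap in lithium plus MDI and 2 in lithium. Neither group shares a slide with the preadipocytes.

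The ratio of miR-29c to miR-29a, the pair that differs by C10U alone, had its highest mean in the lithium arrays. It was -4.80, -4.91 and -4.63 on preadipocyte arrays, -4.70, -4.51 and -4.67 on MDI arrays, -4.62, -4.06 and -4.27 on lithium arrays, and -4.67, -4.59 and -4.54 on lithium plus MDI arrays. Lithium array 1 lay within the ranges of the MDI and the lithium plus MDI arrays. The lithium arrays lay above the preadipocyte arrays, the closest by about 0.01. The difference was 0.46 in log2, or 1.38-fold (two-sided exact permutation p = 0.1, adjusted p = 0.4). Over the 4 pairings of probes it was without overlap in 1, and with the scanner software's total gene signal the groups overlapped. With normexp background correction it was -0.33. The unscaled intensity of miR-29c was 44.7 to 98.6 over the 12 arrays.

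**Figure D4:**
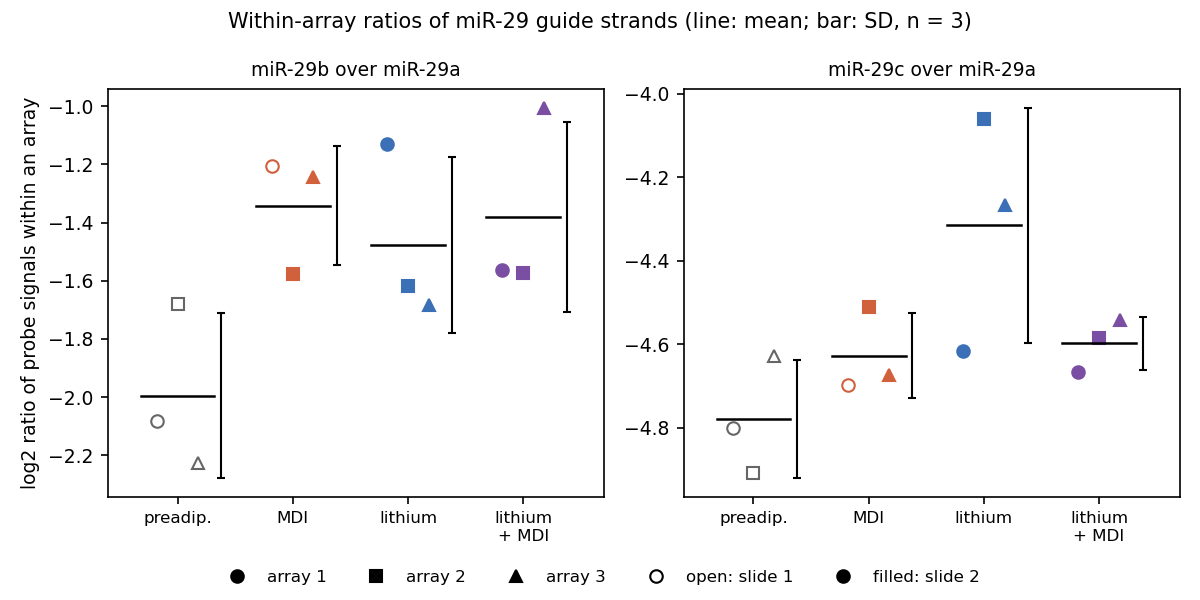
Log2 ratio within an array (y axis) of miR-29b to miR-29a and of miR-29c to miR-29a for the 12 arrays by group (x axis); points are arrays, lines group means and bars 1 SD to each side. The 3 preadipocyte ratios of miR-29b to miR-29a lie between -2.23 and -1.68, below all MDI and lithium plus MDI arrays.

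On the dimmer probe of each member, 15 of the 18 pairwise comparisons of members overlapped or did not overlap as on the brighter one. The exceptions were miR-29c in MDI against preadipocytes and miR-29a in lithium plus MDI against MDI, which overlapped on the dimmer probe, and miR-29b in MDI against preadipocytes, which overlapped only on the brighter one. The sign of the difference matched between a member's probes in all 7 comparisons except the interaction of miR-29b, which was 0.0017 on the brighter and -0.15 on the dimmer probe. The widest gap was for miR-29b in lithium plus MDI against preadipocytes, 1.01 on the brighter and 1.30 on the dimmer probe. Replicate spots of the brighter probes varied by a median 5.14% for miR-29a, 4.58% for miR-29b and 5.28% for miR-29c. Between arrays, the SD within a group ran from 0.04 in log2 for miR-29a in MDI cells to 0.86 for miR-29b in lithium cells.

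The star strands were near the detection limit. By 1 of its 4 probes, miR-29b* was detected on 10 of 12 arrays and missed on lithium arrays 2 and 3, where it sat at the floor of -4.97. The values of miR-29b* given here are from that probe, as its other probes were detected on no array. Its log2 level was -3.73, -3.38 and -3.55 on MDI arrays against -3.99 on lithium array 1, and it ran from -4.69 to -3.56 in preadipocytes and from -4.16 to -2.69 in lithium plus MDI. limma gave 1.27 ± 0.41 (SE) for lithium plus MDI against lithium (adjusted p = 0.0788) and 1.09 for MDI against lithium (adjusted p = 0.168). Both involve floor values, so these sizes are not measured on both sides. miR-29a* was detected on 1 array, by 1 of its 4 probes, and miR-29c* on none.

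Across the 12 arrays the members moved together. Pearson's r was 0.85 between miR-29a and miR-29b (Spearman's rho 0.76), 0.84 between miR-29a and miR-29c (0.82) and 0.86 between miR-29b and miR-29c (0.84). The median r with the other tested miRNAs was 0.369 for miR-29a, 0.281 for miR-29b and 0.342 for miR-29c. The arrays share slide, scaling and group, and these values are descriptions without a test. By the same r, the miRNAs outside the family most like miR-29a were miR-24 (0.907), miR-31 (0.896) and miR-21 (0.894), each above its r with miR-29b and miR-29c. For miR-29b they were miR-21 (0.797), miR-27b (0.759) and miR-222 (0.753), and for miR-29c miR-34b-3p (0.793), miR-31* (0.75) and miR-27a (0.736).

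Other miRNAs tied to the same biology were read from lists. Of 22 listed miRNAs known for acting on collagens, CTGF or TGF-beta signalling, 15 were tested. One of them passed in 1 comparison, a share near the 6.37% over all tested miRNAs: miR-155 fell by 1.42 on the log2 scale in lithium cells against preadipocytes (limma adjusted p = 0.0382). The call passed in 12 of 27 alternative fits and was lost with slide as a fixed block (adjusted p = 0.363), as a random block (0.0880) and without preadipocyte array 1 or 2 (0.188 and 0.235) or lithium array 2 or 3 (0.205 and 0.0632). It was also lost without MDI array 1, 2 or 3 (0.0549, 0.0529 and 0.0572) or lithium plus MDI array 1 (0.0560), which enter through the shared estimate of spread. Normexp (0.822), other detection filters (0.0738 and 0.0684) and a fit of only the groups compared (0.132) lost it too. The median difference of this list in lithium plus MDI against preadipocytes was 0.38, beside 0.30 over all tested miRNAs. In MDI against preadipocytes it was 0.09 beside 0.10. miR-18a, of the miR-17-92 cluster, differed by 1.49 in MDI against preadipocytes (adjusted p = 0.0595). miR-143, which is known from smooth muscle and fat cells, differed by 1.11 in lithium plus MDI against preadipocytes (adjusted p = 0.0981).

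Of 25 listed miRNAs known for acting on insulin signalling or secretion, 20 were tested, and 1 of them passed in each comparison against preadipocytes, beside 3.18%, 6.37% and 1.27% of all tested miRNAs in MDI, lithium and lithium plus MDI. miR-181b was lower than in preadipocytes in MDI cells, at -1.76 (limma adjusted p = 0.0263), and in lithium cells, at -1.54 (adjusted p = 0.0191). Those comparisons share the preadipocyte arrays. Both calls were lost with slide as a fixed block (-1.27, adjusted p = 0.191, and -0.80, adjusted p = 0.652), as a random block (0.0536 and 0.0711) and without preadipocyte array 1 (0.124 and 0.112) or 2 (0.0928 and 0.103). With normexp background correction they were lost too (-1.08, adjusted p = 0.963, and -1.09, adjusted p = 0.822). The call in MDI passed in 20 of 28 alternative fits and that in lithium in 20 of 27. The call in MDI was also lost without MDI array 2 or 3, and that in lithium without lithium array 2 or 3. miR-27a, known for holding back fat cell formation through PPARG, was higher in lithium plus MDI than in preadipocytes, at 1.31 ± 0.23 (SE, adjusted p = 0.0133). With slide as a fixed block it was at 1.68 (adjusted p = 0.0535), with a percentile over all mouse probes at 0.26 (adjusted p = 0.575), and the call was also lost without preadipocyte array 1 or lithium plus MDI array 1. Other losses were with no scaling (adjusted p = 0.168), with normexp (0.331), in the authors' deposited table (0.0688) and with only the groups compared in the fit (0.149). In all, miR-27a passed in 19 of 27 alternative fits. The other 18 passed in no comparison. Medians of the list were -0.24 in MDI and -0.20 in lithium against preadipocytes, beside 0.10 and -0.07 over all tested miRNAs, and 0.56 beside 0.39 in lithium plus MDI against lithium. No member of the miR-29 family stood among the miRNAs that passed in any of the 7 comparisons.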

How the data were processed

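Total RNA of 12 samples was hybridised to 1-colour Agilent miRNA arrays. The authors' deposited scanner files hold linear intensity per spot, made with Agilent Feature Extraction 10.5.1.1 per the file headers (9.5.3 per the submitters' processing notes). A deposited table holds the authors' log2 values, whose processing steps and zero are not given in the sources used here. Its column medians ran from 0.0018 to 0.096, and it served as an alternative. Outlier spots were dropped, spots of a probe averaged, arrays scaled as described above, values floored at the 5th percentile of detected probes (-4.97) and log2 taken. The brightest probe stood for a miRNA. The 157 miRNAs detected on all 3 arrays of a group were tested with limma 3.58.1 in R 4.3.3, with 4 group means and no block, and Benjamini-Hochberg adjustment over the 157 at 0.05. The limma step was tested on simulated data. The number of arrays limits the precision: the median standard error of a difference was 0.335. The labels name no separate cultures, so p-values measure the spread between arrays, which may be technical. Members, lists and arrays that stood apart were chosen with earlier results of these data known. Named miRNAs were the members, the first 3 of the 5 most alike by r, and list members that passed or differed most. Alternatives covered scaling, background correction, floor, filter, probe choice, slide, the authors' table and leaving out arrays.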

Additional observations from a re-analysis of the deposited data

How the results depend on the processing

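Results below are log2 differences. Lithium plus MDI against lithium kept its positive direction for the 3 members in all 28 alternative fits, those leaving out an array included (for miR-29c as low as 0.00040 in one of them), and MDI against lithium did for miR-29a and miR-29b. Most tested miRNAs shared these directions in the scaling used here. Of the 157, 112 were positive in lithium plus MDI against lithium and 99 in MDI against lithium. With quantile normalization lithium against preadipocytes was 0.012 for miR-29a, and the interaction was -0.11 for miR-29b and -0.26 for miR-29c. With the 75th percentile over all mouse probes, miR-29a, miR-29b and miR-29c were at -0.69, -0.040 and -0.54 in MDI against preadipocytes, -1.18, -0.66 and -0.71 in lithium against preadipocytes, and -0.65, -0.037 and -0.47 in lithium plus MDI against preadipocytes. With no scaling they were at -0.78, -0.13 and -0.63 in MDI and -0.97, -0.45 and -0.51 in lithium against preadipocytes. There miR-29a and miR-29c were at -0.33 and -0.14 in lithium plus MDI against preadipocytes, miR-29c was at -0.12 in MDI against lithium, and the interactions of miR-29a (1.43) and miR-29c (0.99) passed. For the interaction with no scaling, 61 of the 157 miRNAs passed around a median of 1.04, which is above the value of miR-29c. With normexp, miR-29c was at -0.12, -0.27 and -0.040 in MDI, lithium and lithium plus MDI against preadipocytes, miR-29a at 0.054 in lithium against preadipocytes, and the interaction of miR-29b at -0.037. In the authors' deposited table miR-29a was at -0.10 in lithium plus MDI against MDI, miR-29c at -0.039 in MDI against lithium, and the interactions of miR-29b and miR-29c at -0.080 and -0.28. The interaction of miR-29b was -0.076 over the mean of detected probes, -0.17 with slide as a fixed and -0.022 as a random block. Without the 3 arrays that stood apart, miR-29a was at -0.12 in MDI against preadipocytes, and lithium against preadipocytes was -0.81, -0.58 and -0.12 for the members in order. Lithium plus MDI against lithium was then 1.03, 1.11 and 0.57, MDI against lithium 0.70 for miR-29a and 1.01 for miR-29b, and the interaction of miR-29a 1.15. The cause of these changes was not tested.

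Leaving out each array in turn gave, for miR-29a, -0.12 to 0.24 in MDI against preadipocytes, -0.58 to 0.013 in lithium against preadipocytes and 0.38 to 0.98 in lithium plus MDI against lithium. For miR-29b it gave 0.42 to 1.04 in MDI against preadipocytes, -0.23 to 0.60 in lithium against preadipocytes, 0.41 to 1.25 in lithium plus MDI against lithium and -0.36 to 0.47 for the interaction. For miR-29c it gave -0.079 to 0.23 in MDI against lithium and -0.041 to 0.28 for the interaction. Preadipocyte array 3 turned miR-29a in MDI against preadipocytes, it or lithium array 1 turned miR-29b in lithium against preadipocytes, and lithium array 2 turned miR-29a there and miR-29c in MDI against lithium.

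The ratio of miR-29c to miR-29a was -0.027, -0.52 and -0.095 in MDI against preadipocytes with quantile normalization, normexp and the authors' deposited table. It was -0.33 with normexp in lithium against preadipocytes, and -0.10 and -0.72 with quantile normalization and normexp in lithium plus MDI against preadipocytes. In lithium plus MDI against MDI it was -0.074, -0.19 and -0.0054 with quantile normalization, normexp and within slide 2, and -0.0054 to 0.088 leaving out arrays. The ratio of miR-29b to miR-29a in that comparison was 0.20 in the authors' deposited table, 0.015 over the mean of detected probes and 0.030 within slide 2, and -0.23 to 0.058 leaving out arrays. In lithium plus MDI against lithium it was -0.091 to 0.27 leaving out arrays.

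Replicate numbers of the labels gave no clear pairing of the arrays. In the check of pairing, r of same-numbered arrays ran from -0.48 to 0.47 over 18 pairs (median 0.061). For arrays of other numbers it ran from -0.52 to 0.60 over 36 pairs (median -0.063). These r are not the r of whole profiles given above, which were far higher. An r over 0.1 was found in 9 of the same-numbered and 11 of the other pairs. Of the 12 arrays, 4 correlated best with their own number. With the replicate number as a block miR-29b in lithium plus MDI against preadipocytes stayed at 1.01 (limma adjusted p = 0.224), and no member's call changed. The call of miR-155 in lithium against preadipocytes was lost (adjusted p = 0.0515). With that block 16 of the 157 miRNAs passed in lithium plus MDI against lithium, where 0 passed without it. Counts of miRNAs that passed in limma moved from 5 to between 0 and 62 in MDI, from 10 to between 0 and 83 in lithium and from 2 to between 0 and 44 in lithium plus MDI against preadipocytes. They moved from 0 up to 88 in lithium plus MDI against lithium, 66 in MDI against lithium and 69 for the interaction, and stayed at 0 in lithium plus MDI against MDI. The fit with no detection filter held only miRNAs with a value above the floor on some array.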
